A study of Mus musculus with 4 samples.

Results

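Neutrophils are short-lived granulocytes that leave the bone marrow with their granules already filled and enter tissue from blood within hours of an insult. S100a8 and S100a9, which encode the subunits of the cytosolic alarmin calprotectin, are among their most abundant transcripts, Csf3r encodes the receptor for granulocyte colony-stimulating factor, and Retnlg encodes a resistin-like secreted protein. Granule proteins are made in sequence in the marrow, with azurophil granules first, specific granules next and gelatinase granules last, so that transcripts for the earliest granules are scarce in circulating and tissue cells. In the lung, neutrophils are held in capillaries at rest and move into the airways after inhaled proteases and other irritants.

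The neutrophils described here were taken by a gate on their own transcripts from single-cell RNA libraries of live (7-AAD-negative) CD45.2-positive cells sorted from mouse lung. A barcode was kept when over 200 genes were detected in it and mitochondrial transcripts made up under 15% of its UMIs (unique molecular identifiers, each 1 captured transcript). It was called a neutrophil when S100a8 plus S100a9 made up at least 2% of its UMIs, Csf3r had at least 1 UMI, and Cd79a, Cd3e and Marco, which mark B cells, T cells and alveolar macrophages, had 0. The gate found 785 neutrophils among 28805 deposited barcodes, of which 27544 passed the 2 quality limits. The cells were thus selected on S100a8, S100a9, Csf3r and the absence of the 3 lineage genes, whose values are therefore descriptions, not findings.

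All mice were on the C57BL/6 strain and carried floxed Ift20 alleles. WT denotes Ift20 f/f mice without Cre, and IFT20-KO denotes Ift20 f/f CD4 cre mice, in which Cre is made in the T cell lineage, so the neutrophils of these mice were not the cells targeted by the deletion. Papain, a plant cysteine protease that acts as an allergen, was given into the nose at 25 µg on 3 days in a row and again on day 14, and lungs were taken on day 15. The controls were given DPBS (buffered saline) in its place. A single library was made for each of the 4 groups (DPBS WT, DPBS IFT20-KO, papain WT, papain IFT20-KO), and the number of mice behind a library is not stated in the labels. Groups of 1 library allow no test, so no difference below has a replicate check, and treatment or genotype and library cannot be told apart. The 95% intervals given below cover counting error only.

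The 4 libraries held 5863 to 8552 barcodes and 53854420 to 75675956 UMIs. Cell barcodes shared between libraries numbered 60 among those kept; 4 neutrophils shared a barcode with a cell of another library, and none did so as neutrophils in both. The neutrophils numbered 122 in DPBS WT, 102 in DPBS IFT20-KO, 347 in papain WT and 214 in papain IFT20-KO. They were shallow cells, with a median of 3432.5, 3254.5, 3285 and 3646 UMIs in the same order against 6114.5 to 6901.5 over all barcodes kept. Their summed UMIs came to 583714, 449861, 1465079 and 1014592, so gene values are firmest in papain WT and weakest in DPBS IFT20-KO.

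The values that the gate used are given as a description. S100a8 plus S100a9 took a median of 8.26% of a neutrophil's UMIs in DPBS WT, 5.13% in DPBS IFT20-KO, 7.48% in papain WT and 7.07% in papain IFT20-KO, whereas they took 0.00301% to 0.0196% of the summed UMIs of B cells. The edge of the gate was not empty, with 101 neutrophils between 2% and 3% and 95 barcodes that met every other limit between 1% and 2%. The lowest share inside was 2.005% and the highest outside was 1.99%. Of 894 kept barcodes at or above 2%, 4 lacked Csf3r, 61 had Cd79a, 43 had Cd3e and 5 had Marco.

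Retnlg, which the gate did not use, was detected in 115 of 122, 86 of 102, 308 of 347 and 189 of 214 neutrophils of the 4 libraries in the order above. Its level was 3880.3, 3370, 4222 and 3260.4 CPM (UMIs of the gene divided by the summed UMIs of those cells and scaled to 1000000) in neutrophils and 2.66 to 19.0 CPM in classical monocytes (cells with Ly6c2 and Ccr2). Ly6g, the surface protein used to sort mouse neutrophils, was sparse at 54.8, 33.3, 77.1 and 60.1 CPM, but it was listed at 0 in the classical monocytes of every library. Of the defining markers of other cells, all 6 of basophils and mast cells were at 0, those of eosinophils summed to at most 4.45 CPM, and those of platelets, red cells and epithelium summed to at most 12.8 CPM. Markers of classical monocytes summed to 498 to 666 CPM, of interstitial macrophages to 561 to 1165 CPM, of alveolar macrophages to 216 to 393 CPM, of B cells to 174 to 235 CPM, of plasma cells to 80.02 to 145 CPM, of T cells to 33.3 to 62.1 CPM, and of dendritic and endothelial cells to at most 21.8 CPM. Natural killer markers summed to 95.9 CPM in DPBS WT, where 5 of the 6 were each detected in 1 cell, and to 0.986 to 2.22 CPM in the other 3 libraries.

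Markers of nonclassical monocytes summed to 1869, 1903, 1618 and 1790 CPM in the gated cells. Most of this was Nr4a1, at 1252, 1011, 1124 and 1088 CPM and detected in 79.4% to 89.3% of gated cells. Nr4a1 was therefore left out of the count that follows. The other 5 markers were concentrated in a subset of the gated cells. Ace, Treml4, Adgre4, Cx3cr1 and Cd300e, which mark nonclassical (patrolling) monocytes, had no UMI in 525 neutrophils, 1 or 2 UMIs in 145, 3 to 9 in 24 and 10 or more in 91. In the cells with 2 or fewer such UMIs, Nr4a1 was still detected in 75.6% to 86.7% and Treml4 in 10.2% to 25.1%. The 115 cells with at least 3 UMIs of the 5 genes numbered 24 in DPBS WT, 16 in DPBS IFT20-KO, 40 in papain WT and 35 in papain IFT20-KO, which is 19.7% (95% exact binomial interval 13.03 to 27.8), 15.7% (9.24 to 24.2), 11.5% (8.36 to 15.4) and 16.4% (11.7 to 22.0) of the gated cells. They carried a median of 9595.5 to 10443 UMIs against 3089.5 to 3340 in the other gated cells, and so held 26.3% to 38.9% of all neutrophil UMIs.

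Their median Retnlg count, a gene the gate did not use, was 10.5, 9, 8 and 7 UMIs a cell in the 4 libraries, against 10, 7, 8 and 8 in the other gated cells. Among the 509 to 736 ungated barcodes per library that carried the monocyte genes it was 0. Csf1r, the receptor for macrophage colony-stimulating factor, stood at 640.1 to 759 CPM in them and at 120.4 to 166 CPM in the other gated cells. Doublet scoring with Scrublet marked 13 gated cells in all, 3 of them from this group, all in papain WT. Whether the cells are pairs of cells in 1 droplet was not tested further, and results that they alter are given with and without them.

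**Figure D1:**
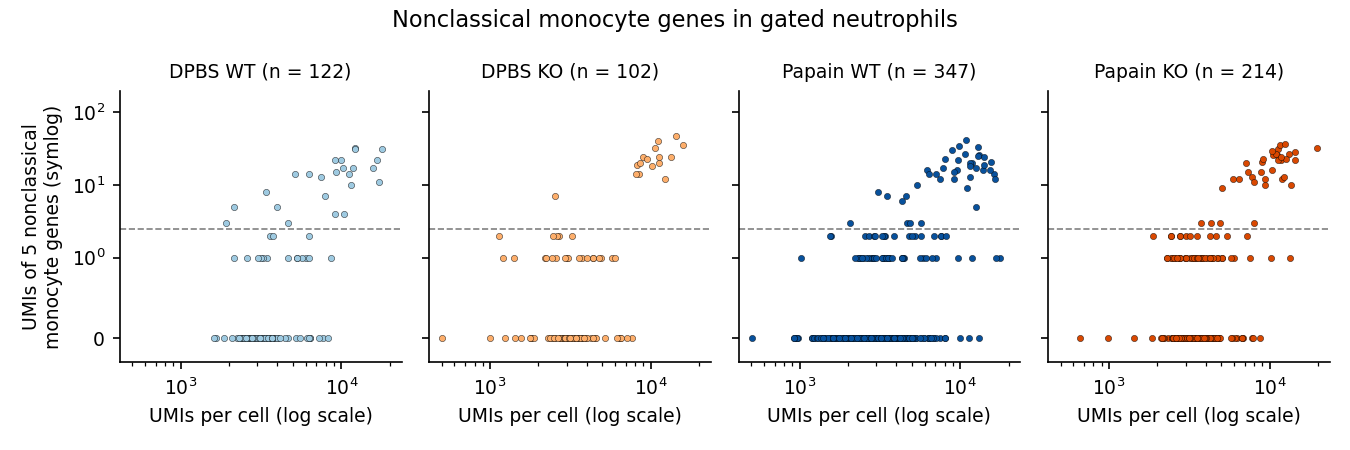
UMIs of 5 nonclassical monocyte genes (symlog axis) against total UMIs (log axis) in the gated cells of each library, with each point 1 cell and a dashed line below 3 UMIs. The 115 cells above the line lie mostly at the deep end, with library medians of 9595.5 to 10443 UMIs against 3089.5 to 3340 below it.

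Ift20, the floxed gene, encodes an intraflagellar transport protein and lies at chr11:78536361-78541737 on the plus strand (GRCm38). Its UMIs in neutrophils were few, with 30 in DPBS WT, 14 in DPBS IFT20-KO, 50 in papain WT and 37 in papain IFT20-KO. These gave 51.4 (34.7 to 73.4), 31.1 (17.0 to 52.2), 34.1 (25.3 to 45.0) and 36.5 (25.7 to 50.3) CPM, and all 4 intervals overlapped. The log2 ratio of IFT20-KO to WT was -0.72 (-1.75 to 0.24) with DPBS and 0.10 (-0.56 to 0.74) after papain. In barcodes with a Cd3e UMI from the same libraries Ift20 stood at 56.7 CPM in DPBS WT and 58.4 CPM in papain WT. The ratio in those barcodes was -1.22 (-1.40 to -1.04) with DPBS and -1.49 (-1.67 to -1.32) after papain, so the labels held in T cells. No difference was detectable in neutrophils at this depth.

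Neutrophils were more frequent among the sorted lung leukocytes after papain than with DPBS in both genotypes. They made up 1.50% (1.25 to 1.79) of kept barcodes in DPBS WT and 4.34% (3.90 to 4.81) in papain WT, a 2.90-fold difference with a log2 ratio of 1.53 (1.23 to 1.84). In IFT20-KO they made up 1.79% (1.46 to 2.17) with DPBS and 3.75% (3.27 to 4.28) after papain, which is 2.10-fold and a log2 ratio of 1.07 (0.72 to 1.42). The papain and DPBS intervals did not overlap in either genotype.

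Between genotypes the intervals overlapped. The log2 ratio of the share in IFT20-KO to that in WT was 0.26 (-0.14 to 0.65) with DPBS and -0.21 (-0.46 to 0.04) after papain. Because a share depends on the other cells in the sort, it was also taken over barcodes free of Cd3e and Cd79a, where it was 4.83%, 4.77%, 12.7% and 13.5% in DPBS WT, DPBS IFT20-KO, papain WT and papain IFT20-KO. On that base the papain to DPBS log2 ratio was 1.40 in WT and 1.50 in IFT20-KO, and the IFT20-KO to WT log2 ratio after papain changed sign to 0.08. A share in sorted cells gives no number of cells per lung.

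**Figure D2:**
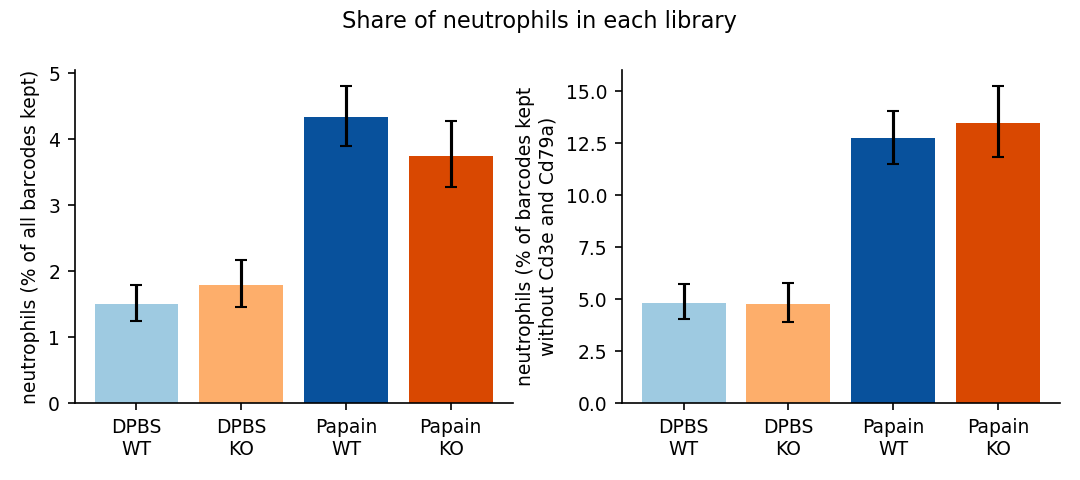
Neutrophils as a percent of kept barcodes (left) and of kept barcodes free of Cd3e and Cd79a (right) in each of the 4 libraries (bars), with exact binomial 95% intervals for counting error. Both papain libraries lie above both DPBS libraries on either base.

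Gene values were compared as CPM of the UMIs summed over the neutrophils of a library, for the 3599 genes with at least 100 UMIs over the 4 libraries. A gene was counted as higher or lower when its CPM differed at least 2-fold. The gate genes are not counted as results. In WT, 51 of 3599 genes (1.42%) were at least 2-fold higher after papain and 34 (0.945%) were lower. In IFT20-KO, 56 (1.56%) were higher and 23 (0.639%) were lower after papain. The median log2 ratio over all tested genes was -0.02 in WT and 0.00 in IFT20-KO. With TMM scaling, which is set by the bulk of genes, the WT count became 83 higher and 15 lower, with the median of all genes moved by 0.12 on the log2 scale. In IFT20-KO a mean of per-cell CPM in place of summed UMIs gave 89 higher and 65 lower. With the 115 cells that carried nonclassical monocyte genes left out, 2551 genes passed the minimum. Then 55 were higher and 15 lower in WT, of which 18 and 4 were in the lists above, and 55 were higher and 20 lower in IFT20-KO, of which 19 and 5 were.

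Higher in both genotypes were 5 genes (9.80% of the WT list, where 1.56% of all tested genes were higher in IFT20-KO, and 8.93% of the IFT20-KO list, where 1.42% of all were higher in WT): Lrg1, Igfbp6, Stfa1, Fcgr2b and H2-Eb1. Lower in both was Ly6i alone (2.94% and 4.35%, against 0.639% and 0.945% of all). Most genes past 2-fold were thinly counted, with a median of 140.5 to 168 UMIs over the 4 libraries against 265 for all tested genes.

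By the naming rule (the 10 genes per direction whose 95% interval lay farthest from a ratio of 1), the genes higher in papain WT were Ngp, Camp, Ltf, Wfdc17, Steap4, Stfa1, Ifitm1, Igfbp6, Chil3 and Lrg1. In 4 of the 10 a single cell supplied over 25% of the papain WT UMIs. In 5 of them no cell supplied more than 10%, and these were Wfdc17, Steap4, Ifitm1, Igfbp6 and Lrg1, which are described next. This division was made after the values were seen.

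The promoters of Wfdc17, Steap4 and Ifitm1, the 3 of these genes with the highest ratios, are shown because their transcripts were higher together in the same library. Each sequence is the RefSeq window from 250 bases before to 50 after the transcription start on GRCm38.p6, read on the plus strand of all 3 genes. For Ifitm1 the whole window lies inside the gene span given below (chr7:140967221-140969825) and does not hold the first base of that span. Capitals mark matches, on either strand, to TTCNNNGAA, the core bound by STAT factors, or to TTNNGNAA, a loose form of the C/EBP core.
Wfdc17 (chr11:83703806-83704105): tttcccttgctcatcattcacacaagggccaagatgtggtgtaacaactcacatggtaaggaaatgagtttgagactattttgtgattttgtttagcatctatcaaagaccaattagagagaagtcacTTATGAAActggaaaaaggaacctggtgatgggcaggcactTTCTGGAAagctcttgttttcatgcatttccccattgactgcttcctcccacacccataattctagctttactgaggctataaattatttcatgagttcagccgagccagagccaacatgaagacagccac
Steap4 (chr5:7960222-7960521): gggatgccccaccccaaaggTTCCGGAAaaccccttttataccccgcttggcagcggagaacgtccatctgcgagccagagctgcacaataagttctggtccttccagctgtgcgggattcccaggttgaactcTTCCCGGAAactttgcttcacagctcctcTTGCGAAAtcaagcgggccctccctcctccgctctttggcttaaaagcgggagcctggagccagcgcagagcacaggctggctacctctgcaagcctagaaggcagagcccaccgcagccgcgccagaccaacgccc
Ifitm1 (chr7:140967826-140968125): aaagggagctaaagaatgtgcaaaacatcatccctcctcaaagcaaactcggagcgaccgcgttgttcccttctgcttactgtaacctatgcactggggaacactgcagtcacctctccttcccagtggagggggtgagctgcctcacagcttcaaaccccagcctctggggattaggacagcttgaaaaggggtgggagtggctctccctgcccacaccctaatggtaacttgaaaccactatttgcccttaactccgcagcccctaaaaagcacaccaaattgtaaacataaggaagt
Steap4 held 1 match to TTCNNNGAA, from base -116 to base -108 relative to the start, and 2 to TTNNGNAA. Wfdc17 held 2 matches to TTNNGNAA and none to TTCNNNGAA, and Ifitm1 held neither. The windows of Igfbp6 and Lrg1, also higher in papain WT and not shown, held neither. Of 32851 mouse promoters in the same table, 8.30% held TTCNNNGAA and 40.7% held TTNNGNAA, and none of the matches shown overlapped another. A match describes the letters in the window and no more.

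Wfdc17, which encodes a small secreted protein with a whey acidic protein domain and lies at chr11:83703991-83706268, had the largest ratio among the 5. Its UMIs numbered 86 in DPBS WT, 155 in DPBS IFT20-KO, 2285 in papain WT and 523 in papain IFT20-KO, from 24, 32, 270 and 98 cells. These are 147, 345, 1559.6 and 515 CPM, so that papain WT stood far above the other 3 libraries. The papain to DPBS log2 ratio was 3.40 (3.09 to 3.73) in WT, which is 10.6-fold, and 0.58 (0.32 to 0.85) in IFT20-KO. After papain it was 3.03-fold lower in IFT20-KO than in WT, at a log2 ratio of -1.60 (-1.74 to -1.46).

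The difference was also one of how many neutrophils had the transcript. With each cell thinned to 1000 UMIs, which left out 0, 1, 6 and 2 shallower cells, 10.7% (5.80 to 17.5), 16.8% (10.1 to 25.6), 56.6% (51.2 to 61.9) and 22.2% (16.8 to 28.4) of neutrophils had a Wfdc17 UMI in DPBS WT, DPBS IFT20-KO, papain WT and papain IFT20-KO. Without thinning the shares were 19.7%, 31.4%, 77.8% and 45.8%. In B cells, thinned in the same way, the share was 4.14%, 4.98%, 6.44% and 4.14%, taken as a guide to RNA free in the droplets. The B cell gate did not ask for the absence of Marco, so pairs with macrophages were not excluded. B cells had a median of 3957.5 to 4893 UMIs.

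Wfdc17 was not particular to neutrophils. In classical monocytes it stood at 159, 169.8, 397 and 171 CPM and in alveolar macrophages (cells with Marco) at 60.9, 71.9, 151 and 89.7 CPM. In both the papain to DPBS log2 ratio in WT was 1.31, with intervals of 1.16 to 1.47 and 1.19 to 1.44 that lie below the interval in neutrophils. Papain WT was the highest library in all 3 cell types.

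Ifitm1, an interferon-induced transmembrane protein at chr7:140967221-140969825, had the most UMIs of the 5 genes. They numbered 524, 512, 6076 and 2127 in DPBS WT, DPBS IFT20-KO, papain WT and papain IFT20-KO, or 898, 1138, 4147 and 2096 CPM. Papain WT was again the highest library and papain IFT20-KO was second. The papain to DPBS log2 ratio was 2.21 (2.08 to 2.34) in WT and 0.88 (0.74 to 1.02) in IFT20-KO, and the IFT20-KO to WT log2 ratio after papain was -0.98 (-1.06 to -0.91), just under 2-fold. At 1000 UMIs a cell, 43.4%, 51.5%, 82.7% and 65.6% of neutrophils had an Ifitm1 UMI against 0.164% to 0.592% of B cells. Classical monocytes had 16.8, 24.1, 42.5 and 31.4 CPM, and their papain to DPBS log2 ratio in WT was 1.34 (0.85 to 1.86). That ratio was 2.17 (1.32 to 3.09) in alveolar macrophages, from 17 UMIs in DPBS WT and 39 in papain WT. In B cells it was 3.03 (2.44 to 3.67), from 26 and 260 UMIs. The rise in WT was thus not particular to neutrophils, and the part of free RNA in it was not tested.

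Steap4, a metalloreductase of the cell membrane at chr5:7960457-7982213, was scarce except in papain WT. Its UMIs numbered 16, 14, 307 and 63, which gave 27.4, 31.1, 209.5 and 62.1 CPM in the 4 libraries. The log2 ratio of papain to DPBS was 2.93 (2.21 to 3.76) in WT and 1.00 (0.15 to 1.95) in IFT20-KO, where it was just short of 2-fold. After papain, IFT20-KO was below WT by a log2 ratio of -1.75 (-2.17 to -1.36). In classical monocytes and alveolar macrophages Steap4 had at most 0.729 CPM in any library.

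Igfbp6, a binding protein for insulin-like growth factors at chr15:102144362-102149511, showed the same order of the papain libraries. It had 21, 12, 239 and 72 UMIs, or 36.0, 26.7, 163 and 71.0 CPM. The log2 ratio of papain to DPBS was 2.18 (1.54 to 2.90) in WT and 1.41 (0.52 to 2.43) in IFT20-KO. After papain the IFT20-KO to WT log2 ratio was -1.20 (-1.60 to -0.82).

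Lrg1, a leucine-rich glycoprotein stored in neutrophil granules and released on activation, lies at chr17:56119678-56122001 on the minus strand and was the gene most alike in the 2 genotypes. It had 197, 107, 1183 and 639 UMIs, or 337, 238, 807 and 629.8 CPM. Its log2 ratio of papain to DPBS was 1.26 (1.04 to 1.48) in WT and 1.40 (1.11 to 1.71) in IFT20-KO, and both papain libraries lay above both DPBS libraries. At 1000 UMIs a cell, 23.8%, 17.8%, 50.4% and 39.6% of neutrophils had a Lrg1 UMI, against at most 0.0870% of B cells.

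The ratios of Wfdc17, Steap4, Ifitm1, Igfbp6 and Lrg1 in WT stayed at least 2-fold under all 12 alternatives that gave them a value. Their lowest log2 ratios were 2.79, 2.33, 2.05, 1.99 and 1.07 in that order. With the cells carrying nonclassical monocyte genes left out, the lowest of these was that of Lrg1, at 1.07. The papain to DPBS ratio of Steap4 in IFT20-KO ranged from 0.28 to 1.47 on the log2 scale and passed 2-fold under 6 of 12 alternatives, and that of Lrg1 ranged from 1.38 to 1.57.

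**Figure D3:**
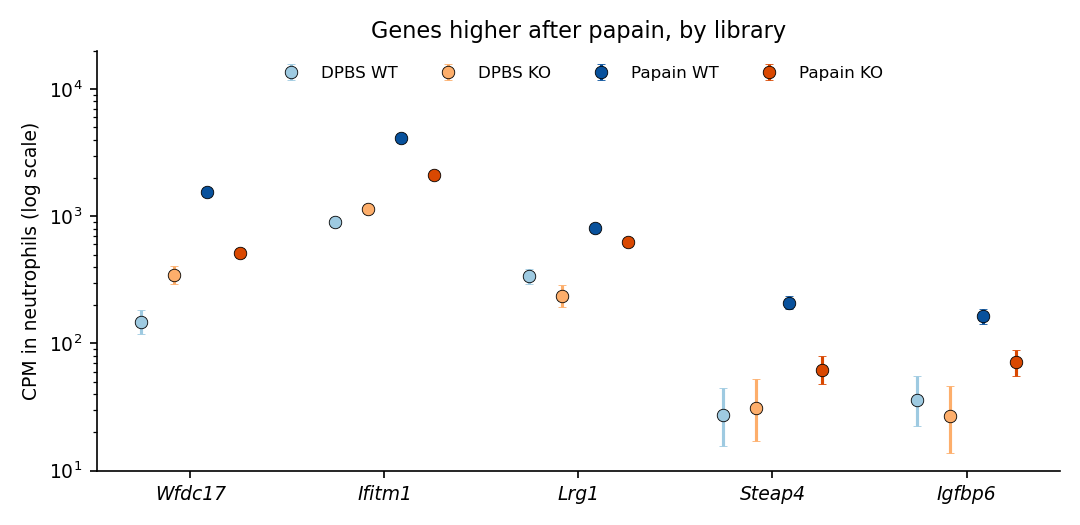
CPM of Wfdc17, Ifitm1, Lrg1, Steap4 and Igfbp6 over the neutrophils of each library on a log axis, with exact Poisson 95% intervals for counting error. Papain WT is the highest library for each of the 5 genes, and for Lrg1 papain IFT20-KO lies close to it.

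**Figure D4:**
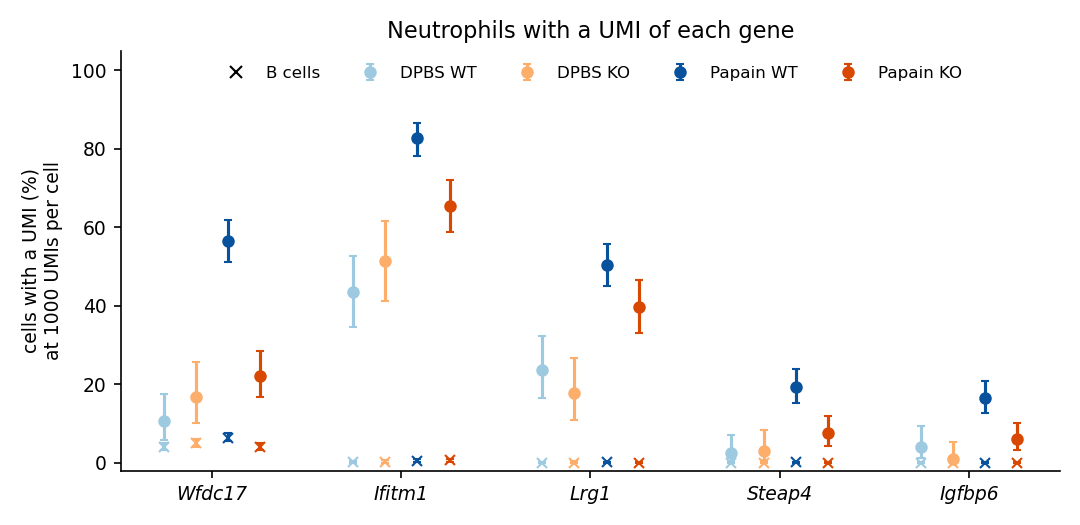
Percent of neutrophils with at least 1 UMI of each gene after thinning every cell to 1000 UMIs, by library, with exact binomial 95% intervals, and the same share in B cells as a guide to free RNA. For Wfdc17 the share is 56.6% in papain WT and 10.7% to 22.2% in the other 3 libraries.

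Specific granule genes gave the largest ratios among the genes named in WT, but from 1 cell. Camp (cathelicidin) had 146 UMIs in papain WT, all of them in 1 cell, and 0 in the other 3 libraries. Ltf (lactoferrin) had 145 in papain WT, 134 of them in 1 cell, and Ngp (neutrophilic granule protein) had 331, of which 307 were in 1 cell. It was the same cell, with 10028 UMIs, 618 of S100a8, 139 of Lcn2, 24 of Mmp8, 0 of Mki67 and 0 of the nonclassical monocyte genes. Camp, Ltf and Ngp are transcribed while specific granules are being filled in the marrow. Outside that cell, papain WT had 0 UMIs of Camp, 11 of Ltf and 24 of Ngp over its other neutrophils.

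Of the 10 specific granule genes, 8 passed the minimum of 100 UMIs. Camp, Ltf, Ngp and Chil3, 4 of the 8, were at least 2-fold higher in papain WT than in DPBS WT, against 1.42% of all tested genes. The median log2 ratio of the 8, with libraries at 0 UMIs set to a floor of 3 counts, was 1.00 in WT, 0.24 for papain to DPBS in IFT20-KO, -0.40 for IFT20-KO to WT with DPBS and -1.32 for IFT20-KO to WT after papain. Lcn2 (neutrophil gelatinase-associated lipocalin), which was spread over 74, 51, 211 and 124 cells, had 637, 580.2, 933 and 775 CPM and log2 ratios of papain to DPBS of 0.55 (0.38 to 0.72) in WT and 0.42 (0.21 to 0.62) in IFT20-KO. Chil3 (Ym1) had 173, 140.04, 472 and 90.7 CPM, but 256 of its 691 UMIs in papain WT were in 1 cell. At 1000 UMIs, 9.84%, 10.9%, 20.5% and 6.13% of neutrophils had a Chil3 UMI, and 10.5%, 11.4%, 13.8% and 7.05% of B cells. Outside papain WT the share in neutrophils was thus no higher than in B cells. Alveolar macrophages had 12304 to 27851 CPM of Chil3.

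None of the 4 azurophil granule genes (Mpo, Elane, Ctsg, Prtn3) passed the minimum, and their summed level was 0 to 6.83 CPM. The 8 gelatinase granule genes all passed and none differed 2-fold in any comparison, where 0.389% to 2.11% of all tested genes did so in a given direction, with median log2 ratios of 0.08 and -0.17 for papain to DPBS in WT and IFT20-KO and 0.08 and 0.03 for IFT20-KO to WT with DPBS and after papain. Mmp9 (gelatinase B), as an example, stood at 1074, 1194, 1244 and 1016 CPM.

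The stefin A genes are cysteine protease inhibitors that lie in a cluster of near-identical copies. In WT, 2 of 4 tested copies were at least 2-fold higher after papain, against 1.42% of all tested genes. In IFT20-KO 1 was higher and 1 lower, against 1.56% and 0.639% of all. Reads that fit several copies make the split between them uncertain. Of 6 copies 4 passed the minimum, with a median log2 ratio of papain to DPBS of 1.00 in WT and 0.80 in IFT20-KO. Stfa2l1 had 502, 436, 833 and 868 CPM, with log2 ratios of 0.73 (0.55 to 0.92) and 0.99 (0.77 to 1.23). Gm5483 had 283, 331, 534 and 501 CPM, with log2 ratios of 0.92 (0.67 to 1.17) and 0.60 (0.33 to 0.87). Stfa1 had 37.7, 64.5, 183 and 245 CPM, with ratios of 2.28 (1.65 to 2.98) and 1.93 (1.37 to 2.54), but its UMIs came from 2, 4, 25 and 28 cells, with up to 67 in 1 cell. BC100530, another copy, had 15, 66, 80 and 2 UMIs from 1, 2, 16 and 1 cells, with 33 of the 80 in papain WT in 1 cell, and was higher after papain in WT and lower in IFT20-KO.

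Several lists of neutrophil function had no gene past 2-fold, which is near the share of all tested genes (0.389% to 2.11% per comparison and direction) and says nothing particular about them. Of 13 neutrophil identity genes that passed, 0 differed 2-fold in any of the 4 comparisons, and their median log2 ratio of papain to DPBS was 0.36 in WT and 0.07 in IFT20-KO. The same was true of 9 chemoattractant receptor genes, with medians of -0.04 and -0.05, of 15 cytokine receptor genes, with medians of 0.21 and 0.04, and of 6 NADPH oxidase genes, with medians of 0.11 and -0.05. Cxcr2, the receptor for the CXC chemokines that draw neutrophils into tissue, had 572, 551, 683 and 491 CPM, and Cxcr4, which holds them in the marrow and is high on aged cells, had 1112, 887, 905 and 856 CPM.

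Among Fc and pattern receptors, 12 of 14 passed and the median log2 ratio was 0.34 in WT and 0.20 in IFT20-KO. Fcgr2b, the inhibitory Fc receptor, was at least 2-fold higher in both genotypes, with 14, 9, 77 and 49 UMIs and log2 ratios of 1.13 (0.30 to 2.07) and 1.27 (0.23 to 2.48). Cd14, the lipopolysaccharide co-receptor, had 1347, 2234, 2697 and 2513 CPM, and its log2 ratio of papain to DPBS was 1.00 (0.89 to 1.11) in WT and 0.17 (0.06 to 0.28) in IFT20-KO. DPBS WT was thus the library that stood apart for Cd14, and its ratio in WT stayed at 2-fold in 6 of 12 alternatives, with a lowest log2 value of 0.60. Trem1, an amplifier of inflammatory signals, had 1191, 1280.4, 1533 and 1456 CPM.

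Cytokine and chemokine genes took a large part of the neutrophil transcriptome in every library, at a summed 29794, 22398, 27369 and 26788 CPM. Of 21 genes 16 passed, with a median log2 ratio of papain to DPBS of -0.09 in WT and 0.09 in IFT20-KO. Il1b, which encodes interleukin-1β, had 15352, 9888, 13451 and 13253 CPM and was detected in 122 of 122, 102 of 102, 345 of 347 and 214 of 214 neutrophils. Cxcl2, a ligand of Cxcr2, had 9296, 7707, 9766 and 8532 CPM. Classical monocytes had 721 to 1234 CPM of Il1b and 252 to 504 CPM of Cxcl2.

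The list had 2 genes past 2-fold with papain, Ccl4 and Tnf. Ccl4 was lower in WT, as were 0.945% of all tested genes, and both were higher in IFT20-KO, as were 1.56% of all. Ccl4, a CC chemokine, had 452, 131, 158 and 499 CPM, from 35, 23, 58 and 61 cells, with log2 ratios of papain to DPBS of -1.51 (-1.77 to -1.25) in WT and 1.93 (1.54 to 2.34) in IFT20-KO. The 2 genotypes thus had opposite orders. Tnf had 20, 10, 47 and 65 UMIs, and its log2 ratio was -0.09 (-0.88 to 0.74) in WT and 1.53 (0.56 to 2.65) in IFT20-KO. Ccl3, a close relative of Ccl4, did not reach 2-fold, at -0.91 (-1.18 to -0.64) and 0.30 (-0.02 to 0.62).

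The interferon-stimulated genes as a list were not higher after papain. Of 20 genes 13 passed, with a median log2 ratio of papain to DPBS of -0.14 in WT and -0.08 in IFT20-KO. In each genotype 1 was at least 2-fold higher, Ifitm1 in WT and Oasl1 in IFT20-KO, against 1.42% and 1.56% of all tested genes. Isg15, a ubiquitin-like modifier, had 891, 660.2, 700.3 and 478 CPM and was lower after papain in both genotypes by less than 2-fold, at log2 ratios of -0.35 (-0.50 to -0.19) and -0.47 (-0.68 to -0.25). Oasl1 rested on 7 UMIs in DPBS IFT20-KO, and its interval of -0.14 to 2.49 included 0.

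Of the remaining lists, NF-kB feedback genes (11 of 11 passed) had medians of 0.06 in WT and 0.30 in IFT20-KO, immediate early genes (11) -0.12 and -0.01, survival genes (8) 0.02 and -0.06, glycolysis and hypoxia genes (12 of 15) 0.14 and -0.08, transcription factors (10 of 13) 0.02 and 0.17, and adhesion genes (11 of 12) -0.03 and -0.11, with 0 genes past 2-fold in either. Of all tested genes 1.42% were higher and 0.945% lower in WT, and 1.56% and 0.639% in IFT20-KO, so a count of 0 says nothing particular about these lists. Genes described for Siglec-F-high neutrophils of inflamed tissue (9 of 11) had medians of 0.13 and -0.11, with Siglecf itself at 74 UMIs in all. Type 2 response genes (5 of 12) had medians of 0.26 and 0.06, with Chil3 the only one past 2-fold. Eicosanoid genes (4 of 8) had medians of 0.19 and 0.18, with Hpgd at least 2-fold lower after papain than with DPBS within IFT20-KO. S100 genes (6) had medians of 0.02 and 0.03. They include the gate genes S100a8 and S100a9, so these medians are descriptions and not findings. S100a4 was the 1 of the 6 at least 2-fold lower in WT, as were 0.945% of all tested genes. Of 8 dividing-cell genes 2 passed.

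Lower after papain in WT by the naming rule were Ccl5, Ly6i, Ccl4, Gm26917, Id3, Crip1, Nupr1, S100a4, Gm12840 and Myo1g. Ccl5, a chemokine of T and natural killer cells, had 114 UMIs in DPBS WT, 83 of them in 1 cell. Of the 6 natural killer markers, 5 were each detected in 1 of 122 neutrophils of that library. S100a4, a motility-related S100 protein, had 517, 249, 249.1 and 228 CPM, and its log2 ratio was -1.05 (-1.28 to -0.83) in WT. With the 115 cells that carried nonclassical monocyte genes left out, the ratio of S100a4 was 2.17, that of Crip1 0.62, that of Nupr1 0.57 and that of Ly6i 0.28, all of the opposite sign. In that setting, where 2551 genes were still tested, 4 of the 34 genes kept a 2-fold difference, and 4 did so with S100a8 plus S100a9 at 5% or more, where 2369 were.

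In IFT20-KO the naming rule gave Ccl4, Stfa1, Bst2, Lrg1, Adar, Ly6c2, Commd6, Lars2, Adam19 and Supt16 as higher after papain, with log2 ratios of 1.40 to 2.87. In 6 of these no cell supplied more than 10% of the UMIs. Adar, the RNA-editing adenosine deaminase, had 16, 2, 69 and 33 UMIs, and its ratio of 2.87 (0.90 to 5.98) rested on the 2 UMIs of DPBS IFT20-KO. The genes lower were Hspb1, BC100530, Hmox1, Fabp4, Hspe1, Spp1, Ddrgk1, Slc25a20, Gm26532 and Hpgd, and in 6 of these a single cell supplied over 25% of the DPBS UMIs. Hspb1, a small heat shock protein, had 86 UMIs in DPBS IFT20-KO, 57 of them in 1 cell, and Hmox1 (heme oxygenase 1) had 186, of which 90 were in 1 cell.

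The second question was whether neutrophils differed between IFT20-KO and WT mice given the same treatment. With DPBS, 62 of 3599 genes (1.72%) were at least 2-fold higher in IFT20-KO and 76 (2.11%) were lower. After papain, 14 (0.389%) were higher and 27 (0.75%) were lower. The DPBS counts compare the 2 shallowest sets, and the called genes had a median of 156 and 143.5 UMIs over the 4 libraries. After papain, TMM scaling gave 9 higher and 32 lower. Without the cells that carried nonclassical monocyte genes, 60 were higher and 55 lower with DPBS, of which 21 and 17 were in the lists above, and 10 were higher and 23 lower after papain, of which 5 and 15 were. The comparisons in the 2 genotypes and in the 2 treatments share their libraries and are not independent of each other.

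After papain, the genes lower in IFT20-KO by the naming rule were Camp, Ngp, Ltf, BC100530, Fn1, Chil3, Wfdc17, Steap4, Hsph1 and Gbp2. In 6 of these a single cell supplied over 25% of the papain WT UMIs, while Wfdc17 and Steap4, described above, were spread over 270 and 142 cells. Gbp2, an interferon-inducible GTPase, had 20, 14, 84 and 20 UMIs and a log2 ratio of -1.54 (-2.32 to -0.82). The interferon-stimulated list had a median of -0.55 in this comparison against 0.03 for all tested genes, with 2 of 13 genes above 0 and 1, Gbp2, past 2-fold. Of all 3599 tested genes, 1945 were above 0 and 0.75% were at least 2-fold lower. The list was also lower in IFT20-KO with DPBS, at a median of -0.34 against 0.01 for all tested genes. There 4 of 13 genes were above 0, against 1838 of 3599, and 2 were at least 2-fold lower, against 2.11% of all.

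The genes higher in IFT20-KO after papain were Ccl4, Gm26917, Apoe, Bst2, Lyl1, Icam1, Gpr141, Hacd2, Lars2 and Ggct, with log2 ratios of 1.04 to 1.66. In 2 of the 10 a single cell supplied over 25% of the papain IFT20-KO UMIs, which were Gm26917 (78 of 121) and Bst2 (49 of 79). The ratio of Gm26917 was 1.64, and 0.17 with mitochondrial UMIs under 10%. Ccl4 was at 1.66 (1.43 to 1.89). Icam1, the adhesion ligand of beta-2 integrins, had 40, 44, 95 and 142 UMIs and a ratio of 1.11 (0.73 to 1.50). It was the only one of 11 adhesion genes past 2-fold, where 0.389% of all tested genes were higher. Apoe, a macrophage lipid carrier, had a ratio of 1.06 (0.93 to 1.19), which was 0.57 without the cells carrying nonclassical monocyte genes. The list medians of neutrophil identity, gelatinase granule, cytokine receptor and NADPH oxidase genes were -0.14, 0.03, -0.03 and 0.01.

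With DPBS, the genes higher in IFT20-KO by the naming rule were Hspb1, BC100530, Hmox1, Odc1, Pmvk, Tnfaip6, Fabp4, Wfdc17, Adgre1 and Cyth1, and those lower were Ccl5, Ccl4, Fn1, Ly6c2, Crip1, Commd6, Plk2, S100a4, Ctbp1 and Oasl1. Of these, 83 of the 114 Ccl5 UMIs in DPBS WT were in 1 cell. The sign turned for Ly6c2 (0.66), Crip1 (0.66) and S100a4 (0.53) with S100a8 plus S100a9 at 5% or more, for Ly6c2 (0.94), Crip1 (0.78) and BC100530 (-2.19) without cells that had a Csf1r or Ccr2 UMI, and for Ly6c2 (0.15) without cells carrying nonclassical monocyte genes. Wfdc17 was at 1.23 (0.84 to 1.62), which became 0.029 when cells with a Csf1r or Ccr2 UMI were left out. Plk2, a stress-induced kinase, had 113 and 33 UMIs in DPBS WT and DPBS IFT20-KO, spread over 51 and 14 cells, and a ratio of -1.40 (-2.01 to -0.83). Il1b was lower in IFT20-KO by less than 2-fold, at -0.63 (-0.69 to -0.58), and Fos, an immediate early gene, was at -0.76 (-0.88 to -0.64).

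Bbc3 was higher in IFT20-KO under both treatments (1.61% of the DPBS list and 7.14% of the papain list, against 0.389% and 1.72% of all tested genes), and Fn1, Ngp and S100a10 were lower under both (3.95% and 11.1%, against 0.75% and 2.11%). For Ngp this rested on 6 against 2 UMIs with DPBS and on the cell with 307 of 331 UMIs in papain WT. For Fn1, 12 of 23 UMIs in DPBS WT and 73 of 102 in papain WT were in 1 cell. Bbc3 and S100a10 had at most 5 and 13 UMIs in 1 cell of any library. Wfdc17 and BC100530 were higher with DPBS and lower after papain, and Ccl4 and Bst2 were lower with DPBS and higher after papain.

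The ratio of variance to mean over cells was taken within each library. S100a8 and S100a9 were cut on by the gate, so their spread is a description and not a finding. The ratio also depends on abundance, so its order is not one of variability alone. S100a9, which ranked first, had a mean of 44.8 to 54.6 UMIs a cell. Over cells thinned to 1000 UMIs, the 10 genes with the highest ratio of variance to mean (lowest of the 4 libraries) were S100a9, S100a8, Fth1, Retnlg, Il1b, Cxcl2, Lyz2, Hspa1a, G0s2 and Cd14. For Retnlg the ratio was 8.41, 6.56, 7.73 and 6.25 in the 4 libraries, at a mean of 4.42, 3.63, 4.35 and 3.48 UMIs a cell, where counting alone gives 1. With the cells that carried nonclassical monocyte genes left out, Malat1 and Nfkbia took the places of Lyz2, a lysozyme of both cell types, and Hspa1a.

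The spread of Il1b was wide but alike in the papain libraries. In the 98, 85, 301 and 177 neutrophils with 2 or fewer UMIs of the 5 nonclassical monocyte genes, thinned to 1000 UMIs, the median was 18, 9, 14 and 14 Il1b UMIs a cell. The quartiles were 12 and 24.75 in DPBS WT, 6 and 18 in DPBS IFT20-KO, and 8 and 21 in both papain libraries. For Ifitm1 the median was 0, 1, 4 and 2, and for Wfdc17 it was 0 except in papain WT, where it was 1. For both genes the median cell of papain WT lay above that of each other library.

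Across the same cells, the summed NF-kB feedback genes and the summed gelatinase granule genes were weakly opposed, with a Spearman rho of -0.21, -0.32, -0.19 and -0.24 in the 4 libraries. NF-kB feedback genes and cytokine genes went together, with a rho of 0.61, 0.53, 0.46 and 0.39. For Wfdc17 and Ifitm1, both high in papain WT, rho was 0.04, 0.19, 0.09 and 0.10. With a median of 0 or 1 Wfdc17 UMIs a cell, ties and counting error pull rho toward 0. These values therefore cannot tell whether Wfdc17 and Ifitm1 were related from cell to cell. These values are descriptions over cells of 1 library each at equal depth, and cells of a library are not replicates.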

How the data were processed

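Lung CD45.2-positive cells of 4 mouse groups, 1 library each, were profiled by droplet RNA sequencing (10x Genomics, 3′ v3). The deposited matrices hold counts of UMIs per gene and barcode, already restricted to called cells by the authors; per the file headers they were written by software version 3.1.0, and the submitters' processing notes name Cell Ranger and mm10. The gene annotation, the cell-calling rule and any doublet removal are not given in the sources used here. Each file lists 31053 genes, of which 13075 had a UMI in a neutrophil, and 30934 identifiers were found in GENCODE M21 on GRCm38, which supplied positions. Groups came from the genotype and treatment labels.

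The limits on genes (200) and mitochondrial UMIs (15%) are those the study states for another experiment, on spleen T cells. Neutrophils were gated on raw counts as described, with no doublet removal; removal of the top Scrublet scores (0.8% per 1000 barcodes) was an alternative. The gate, the gene lists (22 lists, 227 genes, 1 symbol of which is not in the files) and the markers were chosen with earlier results of these data known. UMIs were summed over the neutrophils of a library and scaled to CPM, with exact Poisson 95% intervals. Ratios have exact conditional binomial intervals and shares have Clopper-Pearson intervals, which cover counting error only. A library at 0 UMIs was set to a floor of 3 counts. Classical monocytes were barcodes with Ly6c2 and Ccr2, without Cd79a, Cd3e or Marco, and outside the neutrophil gate. Alveolar macrophages were those with Marco and without Cd79a or Cd3e. B cells were those with at least 2 Cd79a UMIs, without Cd3e and with S100a8 plus S100a9 under 2% of UMIs. Marco, Ly6c2 and Ccr2 were not limited in B cells.

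Named genes were, for each comparison and direction, the first 10 of those at least 2-fold apart, ranked by the bound of the log2 interval nearest to 0, leaving out gate genes, antigen receptor segments and mitochondrial genes; the genes of the lists, by list; the 10 genes with the highest variance to mean over cells; and Ift20. Any other gene was named after its values were seen. A result of 1 list gene is not reported here. Alternatives changed the S100 limit (1% and 5%), added Retnlg to the gate, left out cells with Csf1r or Ccr2, changed the mitochondrial limit to 10%, left out shared barcodes, changed the scaling and the UMI minimum (50 and 10), and thinned cells to 500 UMIs; leaving out cells with nonclassical monocyte genes and each gene's richest cell were added after seeing the data. Scripts were tested on simulated data. The software was scanpy 1.11.5, scipy 1.17.1, numpy 2.4.6, matplotlib 3.10.9 and pandas 2.3.3 under Python 3.11.15, and edgeR 4.0.16 (TMM factors only) under R 4.3.3.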

Additional observations from a re-analysis of the deposited data

Results flagged for a closer look

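Opposite ratios of at least 2-fold in the 2 genotypes, or under the 2 treatments, were seen for Ccl4, BC100530, Bst2 and Wfdc17. With 1 library per group these differences between ratios were not tested, and the ratios share libraries. For Ccl4 the log2 ratio of papain to DPBS was -1.51 in WT and 1.93 in IFT20-KO, and that of IFT20-KO to WT was -1.79 with DPBS and 1.66 after papain. DPBS WT and papain IFT20-KO were thus the high libraries, at 452 and 499 CPM against 131 and 158 CPM in DPBS IFT20-KO and papain WT. Single cells held at most 38 of the 264 Ccl4 UMIs of DPBS WT and 73 of the 506 of papain IFT20-KO. Classical monocytes had 218, 121, 238 and 283 CPM of Ccl4 in DPBS WT, DPBS IFT20-KO, papain WT and papain IFT20-KO. Their papain to DPBS log2 ratio was 0.13 (-0.03 to 0.28) in WT and 1.22 (1.01 to 1.44) in IFT20-KO, so the rise in IFT20-KO was not particular to neutrophils. In alveolar macrophages these ratios were 0.15 and -0.55.

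For BC100530, a stefin A copy, the ratio of papain to DPBS was 1.09 in WT and -6.22 in IFT20-KO, and that of IFT20-KO to WT was 2.51 with DPBS and -4.79 after papain. Its 66 UMIs in DPBS IFT20-KO came from 2 cells, 58 of them from 1. For Bst2, a surface protein that tethers viruses, the ratio of IFT20-KO to WT was -1.46 with DPBS and 1.44 after papain, and 49 of its 79 UMIs in papain IFT20-KO were in 1 cell. For Wfdc17 it was 1.23 with DPBS and -1.60 after papain, of which the first became 0.029 without cells that had a Csf1r or Ccr2 UMI.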

How the results depend on the processing

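No paired analysis was possible because each group holds 1 library and the labels give no replicate that groups share. Of 36 recomputed share ratios 32 moved by less than their counting interval. The papain to DPBS log2 ratio in IFT20-KO became 1.49 with S100a8 plus S100a9 at 5% or more and 1.50 over barcodes free of Cd3e and Cd79a. The IFT20-KO to WT ratio became -0.20 with DPBS at the 5% limit and 0.082 after papain over those barcodes. Counts of genes at least 2-fold apart depended most on the UMI minimum. At 50 UMIs they were 147 higher and 108 lower after papain in WT, 193 and 95 in IFT20-KO, and for IFT20-KO to WT 179 and 234 with DPBS and 50 and 73 after papain. At 10 UMIs they were 542 and 630, 695 and 465, 521 and 709, and 480 and 524. TMM scaling gave 83 higher and 15 lower in WT after papain, and 9 higher in IFT20-KO than in WT after papain. A mean of per-cell CPM gave 90 higher in WT, 89 higher and 65 lower in IFT20-KO after papain, and 98 and 22 higher in IFT20-KO than in WT with DPBS and after papain. Without each gene's richest cell, 85 were higher in WT and 101 in IFT20-KO after papain. Genes lower after papain in WT numbered 57 at an S100 limit of 1%, 15 at 5%, 15 without cells carrying nonclassical monocyte genes and 7 without cells that had a Csf1r or Ccr2 UMI. The last setting also gave 26 genes higher after papain in IFT20-KO, and 22 and 15 lower in IFT20-KO than in WT with DPBS and after papain. It kept 48 of 80 named ratios at 2-fold in the same direction. Genes lower in IFT20-KO after papain numbered 17 at the 5% limit.

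A change of sign was counted only where the main ratio was at least 2-fold, and sign changes of smaller ratios were not counted. Among the single genes, 20 of 2513 recomputed ratios, which include the smaller ones, changed sign in this way. At the 5% limit these were Crip1 (0.82), Nupr1 (0.20) and S100a4 (0.44) for papain to DPBS in WT, Ly6c2 (0.66), Crip1 (0.66) and S100a4 (0.53) for IFT20-KO to WT with DPBS, and Bst2 (-0.10) after papain. Without cells that had a Csf1r or Ccr2 UMI they were Ngp (-0.44), Crip1 (0.39) and S100a4 (0.43) for papain to DPBS in WT, Hmox1 (0.30) in IFT20-KO, and BC100530 (-2.19), Ly6c2 (0.94) and Crip1 (0.78) for IFT20-KO to WT with DPBS. Without cells carrying nonclassical monocyte genes they were Ly6i (0.28), Crip1 (0.62), Nupr1 (0.57) and S100a4 (2.17) for papain to DPBS in WT, Hmox1 (0.033) in IFT20-KO, and Ly6c2 (0.15) for IFT20-KO to WT with DPBS. Fewer cells and UMIs were left in each of these settings, and the cause was not tested. At 500 UMIs a cell in place of 1000, papain WT still had the highest share of cells with Wfdc17 (43.8%), Ifitm1 (72.0%), Lrg1 (33.7%), Steap4 (12.1%) and Igfbp6 (10.7%).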
